A study of Mus musculus with 6 samples.

Results

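Heat shock proteins and J-domain proteins were followed in mouse embryonic stem cells after knockdown of Ncl, the gene of nucleolin, an abundant nucleolar protein of ribosome production. The genes were the members of the small heat shock protein (Hspb), Hsp70 and Hsp110 (Hspa, Hsph1), Hsp90, Hsp60 and Hsp10 (Hspd1, Hspe1), J-domain (Dnaja, Dnajb, Dnajc) and CCT chaperonin (Cct) families, found by the start of the gene symbol. The rule found 79 genes among the 18193 genes measured, each read from the brightest of its probe sets, where a probe set is a group of short array probes for one transcript. In all, the 79 genes had 195 probe sets. Hsp90ab1 had no probe set with a symbol of its own and was not analysed here.

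The cells were E14Tg2a, an embryonic stem cell line of the mouse, and had received Ncl siRNA #2, Ncl siRNA #1 or a control siRNA against firefly luciferase, a gene that these cells lack. Total RNA was taken at 96 h and read on Affymetrix arrays, 2 for each group, with values on a log2 scale and already normalized by the authors. Nothing says that the 2 arrays of a group came from separate cultures, so every p-value measures only the spread between these arrays, and their number limits the precision. For each gene limma drew most of that spread from the other genes (prior degrees of freedom 17.5, against 3 residual). The change given first for a gene is the mean of both Ncl siRNA groups minus the control group, with its standard error (SE), and a gene was called where limma's adjusted p, by Benjamini-Hochberg over all genes, was under 0.05.

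Chaperones bind unfolded or newly made proteins and hold, fold or refold them. Hsp70 proteins do so in cycles of ATP hydrolysis that J-domain proteins start and Hsp110 proteins reset, Hsp90 matures kinases and receptors, the small heat shock proteins hold unfolding proteins without ATP, and the ring-shaped CCT and Hsp60 chambers enclose their clients. Separate sets work in the cytosol and nucleus, in the endoplasmic reticulum (ER) and in mitochondria. Cytosolic sets are induced through heat shock factors and ER sets through the unfolded protein response. Embryonic stem cells are known for a high basal level of many of them.

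Ncl read 13.77 and 13.72 with Ncl siRNA #2, 13.77 and 13.74 with Ncl siRNA #1, and 14.21 and 14.21 in the control arrays, a mean change of -0.46 (SE 0.03, n = 2 arrays per group, limma adjusted p = 3.43e-10). Array medians lay between 5.73 and 5.79. Most markers of lung and heart muscle read higher in the control arrays than with the Ncl siRNAs. All but 1 of 9 lung epithelium markers were called lower with the Ncl siRNAs, and their summed signal in log2 was 8.40 to 8.42 with Ncl siRNA #2, 8.02 to 8.39 with Ncl siRNA #1 and 13.47 to 13.54 in the control arrays. For 8 heart muscle markers, of which 7 were called lower, the summed signal was 8.35 to 8.35, 8.44 to 8.46 and 9.55 to 9.70 in the same groups. Scgb1a1, Bpifa1 and Cyp2f2 of lung and Tnnt2 and Nppa of heart were below the lower quartile of every Ncl siRNA array. Of 7 markers of lung stroma and endothelium 6 were called lower and 1 higher, and of 5 leukocyte markers 2 lower and 1 higher. Bacterial poly-A controls, added before labelling, averaged 8.26 with Ncl siRNA #2, 8.55 with Ncl siRNA #1 and 7.51 in the control arrays. The embryonic stem cell markers were also lower, with 5 of 7 called lower and 1 higher (median change -0.46). The part of these shifts in the results below was not tested. Both control arrays carry the lung and heart transcripts, so no comparison with the control leaves them out, while the comparison of the Ncl siRNAs with each other does not use the control arrays. In bulk RNA, fewer cells of a type and less RNA per cell cannot be told apart.

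The chaperones split in both directions after Ncl knockdown. Of the 79 genes 24 rose, 18 fell and 37 were not called in the mean of both siRNAs, or 53.2% called against a background of 42% over all 18193 genes (20.3% higher and 21.7% lower). That background is not matched for signal. A mean log2 signal of at least 12 was reached by 21 of the 79 and by 692 of all genes. At that signal 57.1% of the chaperones and 71.8% of all genes were called, and below it 51.7% and 40.8%. The median change of the 79 was 0.01, against -0.05 over all genes. A change of at least 2-fold was reached by 4 genes, Hspa1a, Hspb8, Hspb2 and Hspa4l, all of them higher and all of the cytosol and nucleus. The share of all genes past that cut is not given here, so this count has no background beside it. With Ncl siRNA #2 alone 19 genes rose and 18 fell (background 39.5%, with 17.7% higher and 21.7% lower). With Ncl siRNA #1 alone 23 rose and 17 fell (background 37.4%, with 20.2% higher and 17.3% lower). These comparisons share the control arrays. Without the second control array the 23 became 15.

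By compartment, 47 genes act in the cytosol and nucleus, and 18 of them rose, 9 fell and 20 were not called (median change 0.06). That is 57.4% called against the background of 42%, which is not matched for signal. Of 14 ER genes 3 rose, 2 fell and 9 were not called, or 35.7%, below that background (median 0.07). Of 9 mitochondrial genes 2 rose and 5 fell, or 77.8% (median -0.16), and of 9 genes of vesicles, cilia and other places 1 rose and 2 fell, or 33.3% (median -0.20). By family, with the background of 20.3% higher and 21.7% lower, 9 of 27 Dnajc genes, the largest family, fell and 4 rose (median -0.11). Of 13 Dnajb genes 4 rose and 2 fell, and of 13 Hspa genes 5 rose and 2 fell. Of 8 genes with an Hspb symbol 4 rose and 1 fell. Hspb11, described below as a cilia protein in spite of its name, is 1 of these 4 by its symbol.

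**Figure D1:**
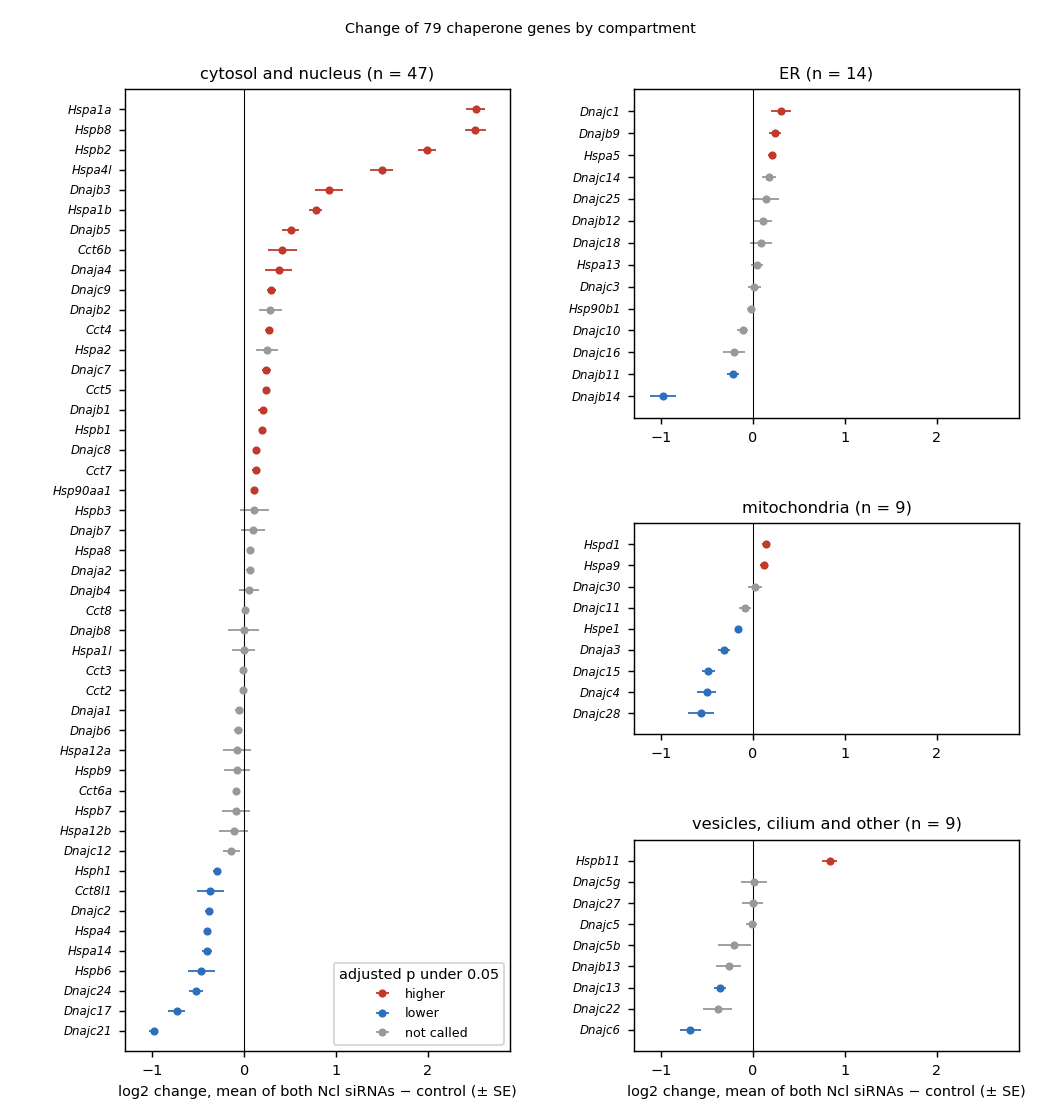
Log2 change of each of the 79 chaperone genes, mean of both Ncl siRNAs minus control, with its SE, in 1 panel per compartment and coloured by its call at an adjusted p under 0.05. The 4 genes past a 2-fold change (Hspa1a, Hspb8, Hspb2 and Hspa4l) stand at the top of the cytosol panel, while 5 of 9 mitochondrial genes lie below 0 as called.

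The stress-inducible Hsp70 genes Hspa1a and Hspb8, the small heat shock protein that works with the co-chaperone Bag3 in removing misfolded proteins, had the largest rises. Hspa1a read 9.80 and 9.92 with Ncl siRNA #2, 8.68 and 8.79 with Ncl siRNA #1, and 6.54 and 7.01 in the control arrays. The 3 groups did not overlap. Its mean change was 2.52 (SE 0.11, n = 2 arrays per group, limma adjusted p = 2.21e-14), a 5.75-fold rise, with changes of 3.09 (Ncl siRNA #2) and 1.96 (Ncl siRNA #1). Hspa1b, its near-identical neighbour, read 11.24 and 11.00, 10.23 and 10.39, and 9.98 and 9.89 in the same order of groups. All 3 groups were apart again, and the rise was smaller, at 0.78 (SE 0.07, limma adjusted p = 3.79e-09), with changes of 1.18 (Ncl siRNA #2) and 0.37 (Ncl siRNA #1). The other 2 probe sets of Hspa1b changed by 0.94 and 1.01. Because the 2 transcripts are nearly the same, probes of one may read the other, and the split of signal between them is uncertain.

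The upstream sequences of this pair are shown because they carry the recognition units of heat shock factors almost unchanged from one gene to the other. They are the 250 bases before the start of each gene in RefSeq's annotation of build GRCm38.p6, chr17:34972157-34972406 for Hspa1a and chr17:34959239-34959488 for Hspa1b, both on the minus strand. Capitals mark a pair of facing heat shock units (GAANNTTC or TTCNNGAA, where N is any base), which reads alike on both strands.
Hspa1a: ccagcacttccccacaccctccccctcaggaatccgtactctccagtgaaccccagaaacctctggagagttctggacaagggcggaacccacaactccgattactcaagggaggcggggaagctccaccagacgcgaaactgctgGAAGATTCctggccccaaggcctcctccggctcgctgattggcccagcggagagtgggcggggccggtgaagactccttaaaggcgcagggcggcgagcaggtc
Hspa1b: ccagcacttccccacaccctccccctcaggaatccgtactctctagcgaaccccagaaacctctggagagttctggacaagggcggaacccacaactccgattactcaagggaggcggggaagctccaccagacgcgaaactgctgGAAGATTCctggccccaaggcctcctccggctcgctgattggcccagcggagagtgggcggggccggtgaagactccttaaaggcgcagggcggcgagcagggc
The 2 sequences were identical at 247 of 250 positions, and the marked pair began 104 bases before the start in both. The transcripts lie 10120 bases apart on chromosome 17, and Hspa1l, a testis Hsp70 gene 546 bases from Hspa1a, was below the lower quartile in all 6 arrays, as was Dnajb7. Hspa1a and Hspa1b thus shared nearly all of these letters, with measured rises of 5.75-fold and 1.72-fold that were not tested against each other.

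Hspb8 read 9.12 and 9.19 with Ncl siRNA #2, 8.89 and 8.68 with Ncl siRNA #1, and 6.69 and 6.21 in the control arrays. Its change was 2.52 (SE 0.11, n = 2 arrays per group, limma adjusted p = 7.58e-14), and its other 2 probe sets rose by 1.51 and 1.08. Hspb2, a small heat shock protein best known from muscle, read 9.18 and 9.24, 8.23 and 8.09, and 6.62 and 6.76 in the same groups, a change of 1.99 (SE 0.10, limma adjusted p = 2.13e-13). Both genes were higher on each Ncl siRNA array than on either control array. Hspb2 lies on chromosome 9 beside Cryab, the alpha-B crystallin gene of the same family, and their annotated spans overlap by 1283 bases. Cryab, no part of the symbol rule, read 11.41 and 11.48, 10.29 and 10.46, and 7.73 and 7.75, a change of 3.17 (SE 0.07, limma adjusted p = 1.13e-19), or 9.0-fold. Whether the Hspb2 probes read Cryab transcripts was not tested.

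Hspa4l, an Hsp110-type protein that resets Hsp70, read 7.80 and 7.91 with Ncl siRNA #2, 7.69 and 7.34 with Ncl siRNA #1, and 6.13 and 6.24 in the control arrays. All 5 of its probe sets were called higher, by 0.97 to 1.50, and the brightest had an SE of 0.12 (limma adjusted p = 1.54e-09). Its relatives did not share this rise. Hsph1, the classic heat-inducible Hsp110, fell to 11.83 and 11.83 with Ncl siRNA #2 and to 11.81 and 11.81 with Ncl siRNA #1, against 12.17 and 12.06 in the control arrays (change -0.30, SE 0.05, limma adjusted p = 1.4e-05), and its second probe set fell by 0.22. Hspa4, the constitutive Hsp110 relative, fell on its brightest probe set, which read 12.95 and 13.00, 12.99 and 12.89, and 13.37 and 13.35 (change -0.40, SE 0.04, limma adjusted p = 3.12e-08). A dimmer probe set of Hspa4 was called higher by 0.33, so the direction of this gene depends on the probe set. The 3 Hsp110-type genes thus included 1 that rose on every probe set and 1 that fell on both of its probe sets.

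**Figure D2:**
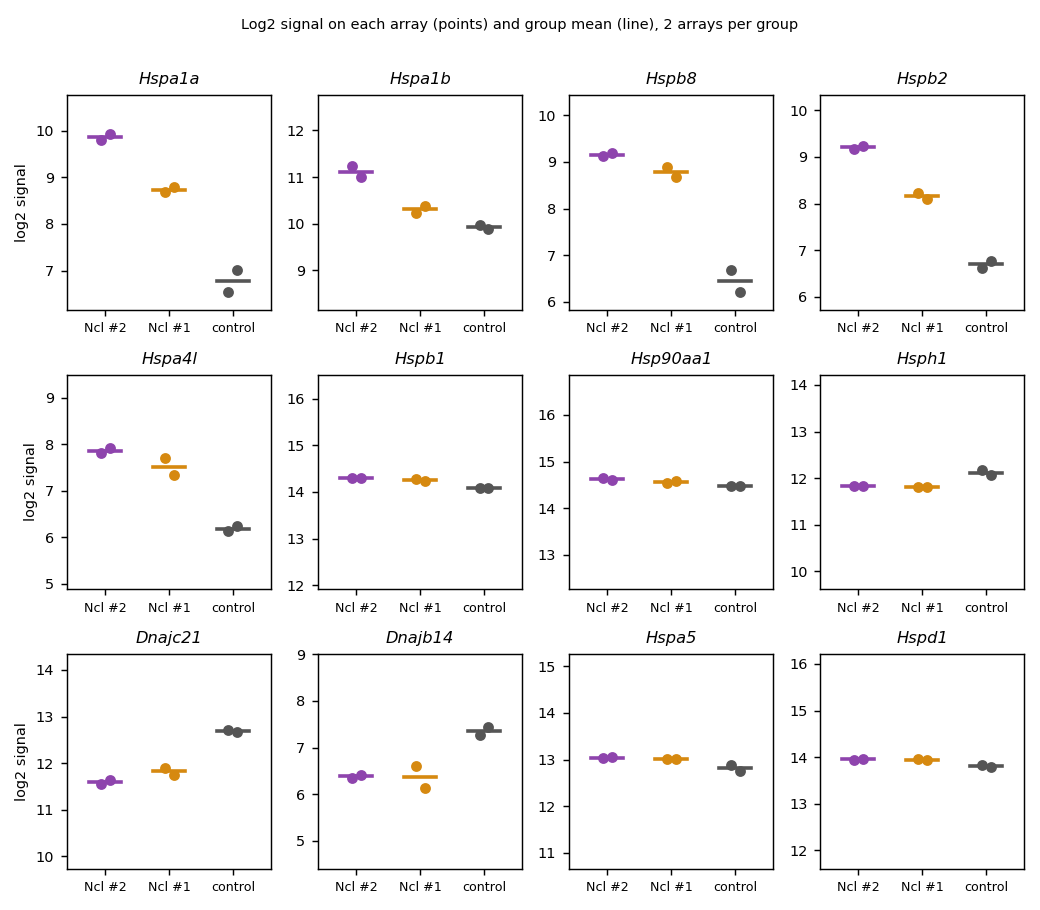
Log2 signal of 12 chaperone genes on each of the 6 arrays (points) with group means (lines), for Ncl siRNA #2, Ncl siRNA #1 and control, all panels spanning the same log2 range. Hspa1a, Hspb8, Hspb2 and Hspa4l stand well above their control arrays, Dnajc21 and Dnajb14 stand below them, and Hsp90aa1, Hspb1, Hspa5 and Hspd1 differ from control by 0.11 to 0.21.

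Hspa8, Hsp90aa1, Hspb1 and Dnajb1 changed by 0.07 to 0.20 on their brightest probe sets. Hspa8, the constitutive Hsp70, read 14.56 and 14.57 with Ncl siRNA #2, 14.54 and 14.56 with Ncl siRNA #1, and 14.50 and 14.48 in the control arrays (change 0.07, SE 0.03, limma adjusted p = 0.0896). Its other probe sets disagreed, with changes of -0.13 and -0.48 called lower and 0.25 called higher, so no direction is given for Hspa8. Hsp90aa1, the inducible cytosolic Hsp90, read 14.66 and 14.61, 14.55 and 14.57, and 14.49 and 14.49 (change 0.11, SE 0.03, limma adjusted p = 0.00652), and it lost the call without either control array (limma adjusted p = 0.0689 and 0.0712). Hspb1, the ubiquitous small heat shock protein known as Hsp25 in mouse, read 14.30 and 14.31, 14.27 and 14.23, and 14.08 and 14.08 (change 0.19, SE 0.03, limma adjusted p = 5.22e-05), and its second probe set rose by 0.20. Dnajb1, the main stress-inducible partner of Hsp70, read 11.51 and 11.62, 11.56 and 11.51, and 11.35 and 11.34 (change 0.20, SE 0.05, limma adjusted p = 0.00165). Of the 2 probe sets of Dnajb1 1 was called higher and 1 was not called. For Hspb1 and Dnajb1 every Ncl siRNA array was above both control arrays, with rises of 1.14-fold and 1.15-fold.

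Probe signal and size of change went apart. In the 21 chaperone genes with a mean log2 signal of at least 12 the median size of the change was 0.12 and 57.1% were called. Their changes ran from -0.98 (Dnajc21, described below) to 0.27, so none reached 2-fold in the mean of both siRNAs, although Dnajc21 passed it with Ncl siRNA #2 (-1.10). Over all 692 genes at that signal the median size was 0.19 and 71.8% were called. Among the 58 dimmer chaperone genes the median size was 0.26 and 51.7% were called. Over all 17501 dimmer genes the median size was 0.22 and 40.8% were called. A smaller median size at high signal was thus found over all genes as well. Signals near the top of the range can be compressed, and the part of that in these sizes was not tested. At the other end, 12 genes were below the array median in all 6 arrays, and 3 of them were called, namely Cct6b and Dnaja4 as higher and Cct8l1 as lower. These calls were close to the limit (limma adjusted p = 0.0356, 0.0415 and 0.0484). None of the probe sets of these 3 genes was called when all probe sets were fitted together.

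**Figure D3:**
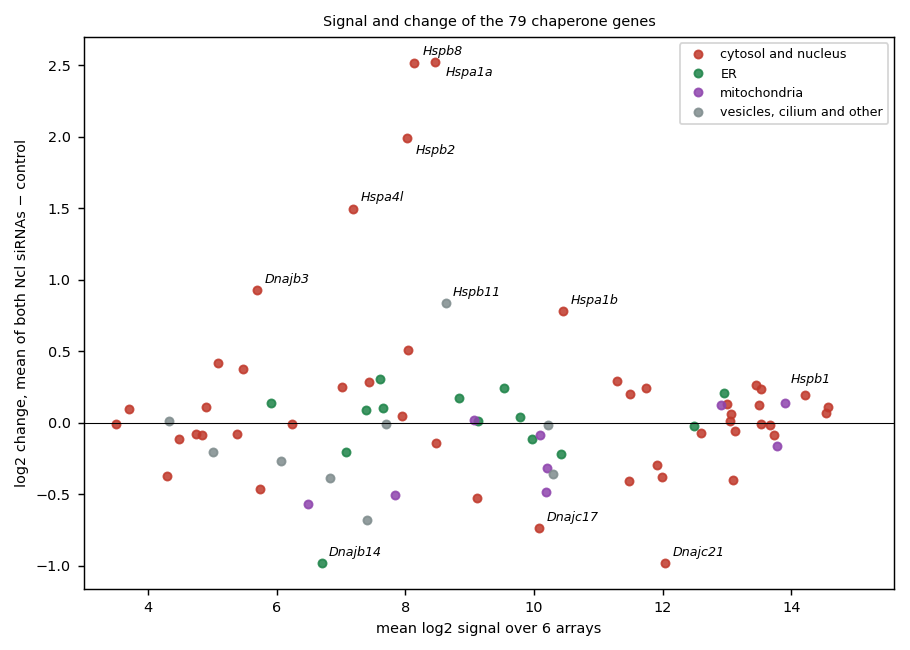
Mean log2 signal over the 6 arrays against the log2 change, mean of both Ncl siRNAs minus control, for the 79 chaperone genes, coloured by compartment. The 4 genes that rose at least 2-fold have signals between 7.19 and 8.46, while the 21 genes at a signal of 12 or more lie between -0.98 (Dnajc21) and 0.27.

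The CCT chaperonin, a cytosolic ring that folds actin and tubulin, gave small and mixed changes. Of 9 Cct genes 4 rose and 1 fell, against the background of 20.3% higher and 21.7% lower. The fall, Cct8l1, and 1 of the rises, Cct6b, were below the array median in all 6 arrays (limma adjusted p = 0.0484 and 0.0356). Cct5 read 13.60 and 13.63 with Ncl siRNA #2, 13.62 and 13.59 with Ncl siRNA #1, and 13.36 and 13.39 in the control arrays (change 0.24, SE 0.04, limma adjusted p = 9.97e-06). Cct4 and Cct7 were called higher by 0.27 and 0.13, but 2 dimmer probe sets of Cct4 were called lower. Cct2, Cct3 and Cct8 changed by -0.01, -0.01 and 0.01, with 95% confidence intervals between -0.09 and 0.09. Tcp1, the first CCT subunit, named outside the symbol rule, changed by 0.03 (limma adjusted p = 0.547). The ring's subunits therefore did not share one change at these signals.

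**Figure D4:**
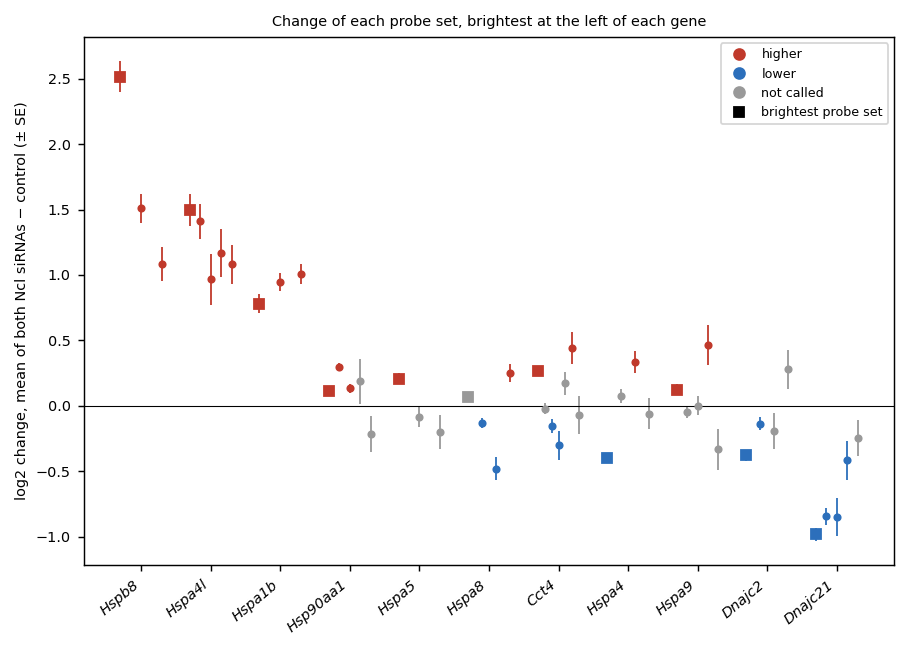
Log2 change of every probe set of 11 chaperone genes with its SE, with the brightest probe set as a square at the left of each gene. All probe sets of Hspb8, Hspa4l and Hspa1b are above 0, whereas those of Hspa8, Cct4 and Hspa4 lie on both sides of 0.

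Dnajc21, the J-domain protein that in human cells and, as Jjj1, in yeast helps to mature the large ribosomal subunit, and Dnajb14 of the ER had the largest falls in the mean of both siRNAs. Dnajc21 read 11.54 and 11.64 with Ncl siRNA #2, 11.90 and 11.75 with Ncl siRNA #1, and 12.71 and 12.67 in the control arrays. Its change was -0.98 (SE 0.05, n = 2 arrays per group, limma adjusted p = 4.07e-13), which left 50.6% of the control signal, and 4 of its 5 probe sets were called lower. Its change was -1.10 with Ncl siRNA #2 and -0.86 with Ncl siRNA #1, and with Ncl siRNA #1 the changes of Dnajb14 and Dnajc17 were -0.99 and -0.91. Dnajc2, the ribosome-associated J-domain protein that works beside Hspa14 on nascent chains, read 11.84 and 11.90, 11.86 and 11.83, and 12.23 and 12.24 (change -0.38, SE 0.04, limma adjusted p = 2.94e-07). Hspa14, its Hsp70-type partner, read 11.29 and 11.35, 11.43 and 11.27, and 11.71 and 11.78 (change -0.41, SE 0.05, limma adjusted p = 1.41e-06). Dnajc17, which is linked to splicing, fell by 0.74 and Dnajc24, which takes part in diphthamide synthesis on elongation factor 2, by 0.52. Probe sets called lower were 2 of 4 for Dnajc2, 2 of 3 for Hspa14, 1 of 3 for Dnajc17 and 2 of 2 for Dnajc24. Their other probe sets were not called. Both ribosome-associated partners, Dnajc2 and Hspa14, were lower on every Ncl siRNA array than on either control array.

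Other cytosolic and nuclear J-domain genes rose. Dnajb3, a testis-type J-domain gene, read 5.96 and 5.99 with Ncl siRNA #2, 6.17 and 5.93 with Ncl siRNA #1, and 4.93 and 5.23 in the control arrays (change 0.93, SE 0.15, limma adjusted p = 2.94e-05), near or below the array medians. Dnajb5 rose by 0.51, Dnajc9, a histone chaperone, by 0.29, and Dnajc7, which binds Hsp70 and Hsp90, by 0.24. Dnajc8 was called higher by 0.13 on one probe set and lower by 0.13 on the other. Hspb6, a small heat shock protein of heart and smooth muscle, fell to 5.63 and 5.58 with Ncl siRNA #2 and to 5.51 and 5.64 with Ncl siRNA #1, against 5.92 and 6.19 in the control arrays (change -0.47, SE 0.15, limma adjusted p = 0.0144). It lost the call without the second control array (change -0.33, limma adjusted p = 0.216) or without the second Ncl siRNA #2 array (limma adjusted p = 0.0569). Hspb6 moved in the direction of the heart muscle markers, of which 7 of 8 were lower with summed signals of 8.35 to 8.46 in the Ncl siRNA arrays and 9.55 to 9.70 in the control arrays, and their part in its change was not tested. Hspb2 and Cryab rose, and the part of the heart muscle markers in their changes was not tested either.

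In the ER the probe sets of the main chaperones disagreed. Hspa5, the ER Hsp70 known as BiP and the most used sign of the unfolded protein response, read 13.03 and 13.05 with Ncl siRNA #2, 13.02 and 13.01 with Ncl siRNA #1, and 12.88 and 12.76 in the control arrays (change 0.21, SE 0.04, limma adjusted p = 0.000236). Its 2 dimmer probe sets changed by -0.09 and -0.20 and were not called, and the mean of all 3 gave -0.03. Hsp90b1, the ER Hsp90, read 12.51 and 12.46, 12.41 and 12.51, and 12.53 and 12.45 (change -0.02, SE 0.04, limma adjusted p = 0.761). Its second probe set, at nearly the same signal, was called lower by 0.85, and the mean of both gave -0.43 (limma adjusted p = 1.13e-05), so no direction is given for Hsp90b1. Dnajb9, an ER J-domain protein induced by the unfolded protein response, read 9.62 and 9.63, 9.58 and 9.63, and 9.36 and 9.38 (change 0.24, SE 0.07, limma adjusted p = 0.00453). Dnajc3, another such target, changed by 0.02 (limma adjusted p = 0.898). The groups overlapped for Dnajc3 and for the brightest probe set of Hsp90b1.

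The other ER genes gave 1 clear fall. Dnajb14, a J-domain protein of the ER membrane, fell to 6.36 and 6.41 with Ncl siRNA #2 and to 6.60 and 6.13 with Ncl siRNA #1, against 7.27 and 7.44 in the control arrays (change -0.98, SE 0.14, limma adjusted p = 5.62e-06). Its dimmer second probe set changed by -0.26 and was not called. Dnajb11, the ER partner of BiP, read 10.26 and 10.36, 10.46 and 10.33, and 10.48 and 10.66 (change -0.22, SE 0.06, limma adjusted p = 0.00866), and without the second control array the change was -0.13 and was not called (limma adjusted p = 0.273). Dnajc1, an ER membrane J-domain protein that also touches ribosomes, was called higher by 0.31 in the mean and with Ncl siRNA #1. With Ncl siRNA #2 it was not called (change 0.19, limma adjusted p = 0.267), and of its 6 probe sets 1 was called higher and 5 were not called.

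The upstream sequences of Hspa5 and Hsp90b1 are shown because both carry the ER stress element (CCAAT, any 9 bases, then CCACG, on either strand). They are again the 250 bases before the RefSeq start on GRCm38.p6, chr2:34771840-34772089 on the plus strand for Hspa5 and chr10:86705445-86705694 on the minus strand for Hsp90b1, with the element in capitals.
Hspa5: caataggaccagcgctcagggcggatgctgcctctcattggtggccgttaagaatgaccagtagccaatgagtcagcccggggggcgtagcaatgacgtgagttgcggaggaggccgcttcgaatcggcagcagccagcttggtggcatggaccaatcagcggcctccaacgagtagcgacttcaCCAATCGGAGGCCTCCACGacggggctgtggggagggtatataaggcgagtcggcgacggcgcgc
Hsp90b1: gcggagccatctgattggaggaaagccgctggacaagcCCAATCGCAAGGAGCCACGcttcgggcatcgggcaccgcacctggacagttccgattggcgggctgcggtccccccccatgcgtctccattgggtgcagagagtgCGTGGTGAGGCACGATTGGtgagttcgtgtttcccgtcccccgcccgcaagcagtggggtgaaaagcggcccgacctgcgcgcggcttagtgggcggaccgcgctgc
Hspa5 held 1 element beginning 65 bases before the start and Hsp90b1 held 2, beginning 212 and 107 bases before it. Among the 65 genes with a RefSeq window of 250 bases before to 50 after a start, Dnajc3 was the other one with this element, and 0.137% of all 27025 genes with a window held it. On their brightest probe sets Hspa5 was called higher and Hsp90b1 and Dnajc3 were not called, against the background of 20.3% higher and 21.7% lower. Each of these 3 genes also had a probe set whose call differed from that of its brightest, and the genes were not tested against each other.

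Among the mitochondrial chaperones falls outnumbered rises, and none reached 2-fold. Hspd1, the Hsp60 chamber, read 13.94 and 13.97 with Ncl siRNA #2, 13.97 and 13.93 with Ncl siRNA #1, and 13.83 and 13.80 in the control arrays (change 0.14, SE 0.03, limma adjusted p = 0.00248), and the call was lost without the second control array (limma adjusted p = 0.068). Hspe1, the Hsp10 lid of that chamber, read 13.70 and 13.70, 13.73 and 13.77, and 13.90 and 13.88 (change -0.16, SE 0.03, limma adjusted p = 0.000593), and its second probe set fell by 0.38. The chamber and its lid thus lay at 110% and 89.4% of the control signal, and neither was called with variances fitted without a trend (limma adjusted p = 0.171 and 0.115). Hspa9, the mitochondrial Hsp70, read 12.87 and 12.96, 13.02 and 12.94, and 12.85 and 12.80 (change 0.12, SE 0.04, limma adjusted p = 0.0234), and it lost the call without either control array (limma adjusted p = 0.0537 and 0.231) or without the second Ncl siRNA #2 array (limma adjusted p = 0.118), and the mean of its probe sets changed by 0.04 (limma adjusted p = 0.657). Both rises of the compartment were therefore lost without the second control array.

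Hspd1 and Hspe1 lie head to head on chromosome 1, with annotated spans that overlap by 96 bases. The letters of Hspe1 are shown beside those of Hsph1 because both genes hold 3 alternating heat shock units (GAA and TTC in turn, each 2 bases from the next). Among the 65 genes with a window only Hspd1, Hspe1, Hsph1 and Dnajb6 did so. The Hspe1 sequence is chr1:55087898-55088147 on the plus strand and that of Hsph1 is chr5:149636337-149636586 on the minus strand, both GRCm38.p6 and the 250 bases before the RefSeq start. Capitals mark the run of units in Hspe1 and a facing pair in Hsph1, whose triple units begin 37 bases after the start and are not shown.
Hspe1: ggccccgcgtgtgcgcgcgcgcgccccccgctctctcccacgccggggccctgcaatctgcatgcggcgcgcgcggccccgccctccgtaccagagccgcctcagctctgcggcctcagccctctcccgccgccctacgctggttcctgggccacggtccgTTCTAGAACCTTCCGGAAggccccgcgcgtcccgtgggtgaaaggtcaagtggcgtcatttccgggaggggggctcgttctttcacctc
Hsph1: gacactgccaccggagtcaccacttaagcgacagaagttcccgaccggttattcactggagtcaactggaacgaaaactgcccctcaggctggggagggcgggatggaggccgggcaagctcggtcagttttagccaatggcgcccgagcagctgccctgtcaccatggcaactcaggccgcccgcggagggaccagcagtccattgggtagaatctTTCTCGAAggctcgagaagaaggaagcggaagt
The run in the Hspe1 sequence, chr1:55088059-55088076, was also found in the second window of Hspd1. There it began 144 bases before that annotated start, and the first window of Hspd1 did not hold it. Of the 4 genes with triple units Hspd1 rose, Hspe1 and Hsph1 fell and Dnajb6 was not called, and 0.662% of all genes with a window held such units. The facing pair was found in 20 of the 65 genes (30.8%), of which 7 rose, 4 fell and 9 were not called, and in 17.0% of all genes with a window. Over all 18193 genes 20.3% were called higher and 21.7% lower, and a tie between these units and the calls was not tested. A match is a description of letters only, and a pair can lie inside a triple.

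The J-domain genes of mitochondria gave most of the falls there. Dnaja3, a matrix J-domain protein that serves Hspa9, read 9.98 and 10.00 with Ncl siRNA #2, 10.27 and 10.13 with Ncl siRNA #1, and 10.32 and 10.50 in the control arrays (change -0.32, SE 0.06, limma adjusted p = 0.000381), while its 2 dimmer probe sets were not called, nor was the mean of all 3 (change -0.08, limma adjusted p = 0.599). Dnajc15, an inner membrane J-domain protein of the import motor, read 9.83 and 9.99, 10.12 and 10.17, and 10.40 and 10.63 (change -0.49, SE 0.07, limma adjusted p = 4.4e-06). Dnajc4 fell by 0.50 and Dnajc28 by 0.57. Of the 2 probe sets of Dnajc28 1 was called lower and 1 was not called. Dnajc28 was not called without the first control array (change -0.38, limma adjusted p = 0.113). For Dnaja3, Dnajc15 and Dnajc4 the arrays of Ncl siRNA #2 were all below those of Ncl siRNA #1, and these below the control arrays, with the difference between the siRNAs not called.

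Outside these compartments, Hspb11, a subunit of the transport complex of cilia (IFT25) in spite of its name, rose to 8.91 and 8.88 with Ncl siRNA #2 and 8.97 and 8.89 with Ncl siRNA #1, against 8.02 and 8.12 in the control arrays (change 0.84, SE 0.08, limma adjusted p = 1.9e-08). Dnajc6, auxilin, which uncoats clathrin vesicles, read 7.05 and 6.92, 7.44 and 7.29, and 7.87 and 7.84 (change -0.68, SE 0.11, limma adjusted p = 2.51e-05). For Hspb11 1 of 2 probe sets was called higher, and for Dnajc6 2 of 4 were called lower, with the others not called. Dnajc13, an endosomal J-domain protein, read 10.14 and 10.29, 10.23 and 10.04, and 10.51 and 10.56 (change -0.36, SE 0.07, limma adjusted p = 0.000104), but it was not called with the mean of its probe sets (change -0.16, limma adjusted p = 0.13). None of these 3 genes differed between the siRNAs by limma's adjusted p.

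The siRNAs were then set against each other, a comparison without the control arrays. Of 7 embryonic stem cell markers 6 were lower with Ncl siRNA #2, with summed signals of 15.71 with Ncl siRNA #2 and 15.89 to 15.92 with Ncl siRNA #1, and their part in the differences was not tested. Of the 79 genes 3 were higher and 2 lower with Ncl siRNA #2 than with Ncl siRNA #1, or 6.33% against a background of 8.48% over all genes (2.3% higher and 6.18% lower), and for the 74 others every 95% confidence interval lay within 2-fold. Hspa1a differed by 1.13 (SE 0.12, n = 2 arrays per group, limma adjusted p = 4e-06), a 2.18-fold higher signal with Ncl siRNA #2. Hspb2 differed by 1.05 (SE 0.11, limma adjusted p = 2.66e-06) and Hspa1b by 0.81 (SE 0.08, limma adjusted p = 7.3e-07). Cryab, the neighbour of Hspb2, differed by 1.07 (SE 0.08, limma adjusted p = 9.03e-09), while Ncl itself differed by -0.01 (limma adjusted p = 0.941). Hspb8 and Hspa4l, which rose over control with both siRNAs, differed by 0.37 (95% confidence interval 0.10 to 0.65, limma adjusted p = 0.0839) and 0.34 (0.04 to 0.63, limma adjusted p = 0.153). Hspb8 became called without either control array, which then enter only through the spread (limma adjusted p = 0.0303 and 0.027).

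Dnajc21 was lower with Ncl siRNA #2 by 0.24 on the log2 scale (change -0.24, SE 0.06, limma adjusted p = 0.0123), and Dnajc14, an ER membrane J-domain protein, by 0.33 (change -0.33, SE 0.09, limma adjusted p = 0.0262). Dnajc14 read 8.78 and 8.67 with Ncl siRNA #2, 9.04 and 9.07 with Ncl siRNA #1, and 8.65 and 8.78 in the control arrays, so its rise over control was called with Ncl siRNA #1 (0.34) and not with Ncl siRNA #2 (0.01). Both calls were lost without the first Ncl siRNA #1 array (limma adjusted p = 0.133 for Dnajc21 and 0.0624 for Dnajc14) and without the first Ncl siRNA #2 array (0.211 and 0.127). The Dnajc14 call was also lost without the second Ncl siRNA #2 array (limma adjusted p = 0.323) and with quantile normalization (0.119), and the Dnajc21 call with the mean of its probe sets (-0.11, limma adjusted p = 0.518). Without the second Ncl siRNA #1 array 5 genes were called higher and 11 lower. The 2 falls thus rest on single arrays, whereas the 3 rises were called under each of these omissions.

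Among partner genes of the cytosolic chaperones falls outnumbered rises. Of 28 measured co-chaperones and heat shock factor genes 8 rose and 13 fell, against the background of 20.3% higher and 21.7% lower (median change -0.09, against -0.05 over all genes). Beside Cryab, Hsf2, a heat shock factor, rose by 0.63 (SE 0.11, limma adjusted p = 7.51e-05), but by 0.27 and without a call with the mean of its probe sets (limma adjusted p = 0.0589). Bag2, an Hsp70 nucleotide exchange factor, rose by 0.57 (SE 0.13, limma adjusted p = 0.0011). Pfdn1, a subunit of prefoldin, which hands actin and tubulin to CCT, read 11.30 and 11.14 with Ncl siRNA #2, 11.28 and 11.29 with Ncl siRNA #1, and 11.96 and 12.03 in the control arrays (change -0.75, SE 0.05, limma adjusted p = 1.02e-10). All 6 prefoldin subunits of the list (Pfdn1, Pfdn2, Pfdn4, Pfdn5, Pfdn6 and Vbp1) were called lower, by 0.15 to 0.75, a group picked out after its values were seen. The Hsp90 co-chaperones Fkbp5 and Ahsa1 fell by 0.72 and 0.50. Hsp90aa1 changed by 0.11 in the mean of both siRNAs, with 3 of its 5 probe sets called higher. With Ncl siRNA #1 alone it was not called (change 0.075, limma adjusted p = 0.119). Bag3, the partner of Hspb8, changed by 0.17 and was not called (limma adjusted p = 0.171).

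ER partners and mitochondrial partners likewise moved both ways. Of 26 ER folding and unfolded protein response genes 6 rose and 9 fell, against the same background (median change -0.08). Ddit3, the stress transcription factor CHOP, read 8.87 and 9.02 with Ncl siRNA #2, 8.86 and 8.75 with Ncl siRNA #1, and 7.73 and 7.95 in the control arrays (change 1.04, SE 0.09, limma adjusted p = 3.29e-09). Edem1, which sends misfolded glycoproteins to degradation, rose by 0.66 and the lectin chaperone Canx by 0.51. Manf, an ER-resident factor of the same response, fell by 0.62, and the oxidases Ero1a and Ero1b by 0.49 and 0.43. Ero1b was not called with the mean of its probe sets (change -0.21, limma adjusted p = 0.138) or without the second control array (limma adjusted p = 0.0501). Xbp1, Atf4 and Herpud1, further genes of the response, changed by 0.03, 0.08 and 0.04 and were not called. Of 13 mitochondrial partners 1 rose and 4 fell (median -0.13): Grpel2, an exchange factor of Hspa9, rose by 0.34, and Timm44 of the import motor, Trap1 and Clpp fell by 0.66, 0.18 and 0.20. The last 2 were not called without the second control array (limma adjusted p = 0.119 and 0.228).

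**Figure D5:**
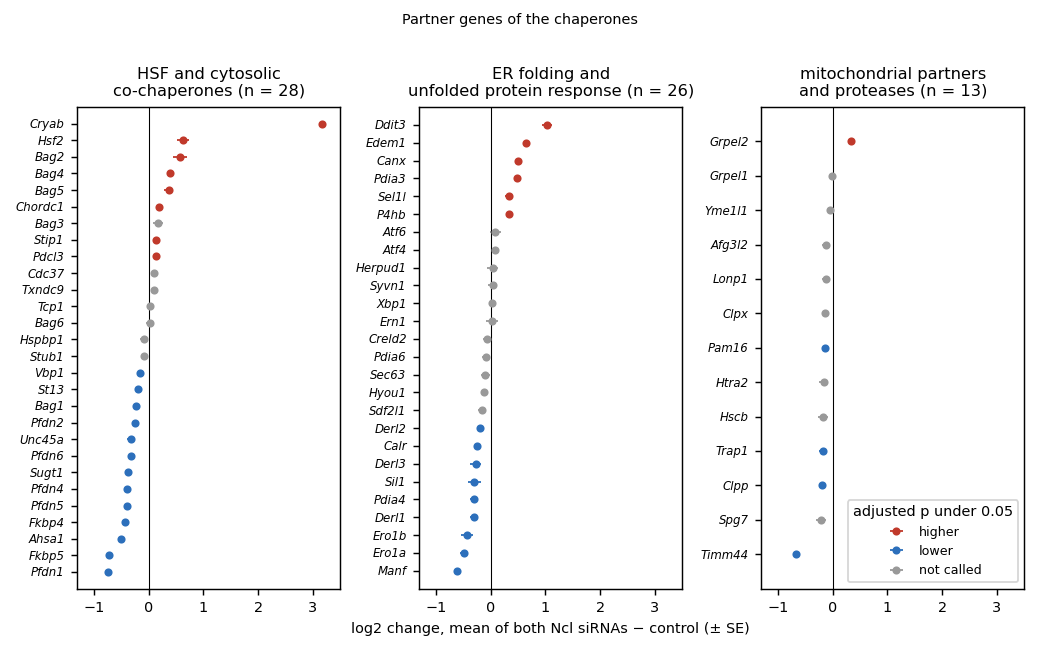
Log2 change, mean of both Ncl siRNAs minus control, with its SE, for 28 cytosolic co-chaperone and heat shock factor genes, 26 ER genes and 13 mitochondrial partners, coloured by call. Cryab stands alone at 3.17, Ddit3 leads the ER panel at 1.04, and the prefoldin genes (Pfdn1, Pfdn2, Pfdn4, Pfdn5, Pfdn6 and Vbp1) lie between -0.75 and -0.15.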

How the data were processed

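The deposited log2 values, normalized between arrays by the authors with a method not given in the sources used here, were used without further scaling. Per the labels, RNA was extracted with an RNeasy kit and labelled with biotin by an Affymetrix IVT kit. Of 45101 probe sets, those with 1 symbol (34945) were kept, and each gene was read from its brightest probe set by mean over the 6 arrays. Groups were compared in limma 3.58.1 (R 4.3.3) with lmFit and eBayes with a trend, all 6 arrays, 1 mean per group, Benjamini-Hochberg over 18193 genes (residual degrees of freedom 3, prior 17.5). The steps were tested on simulated data. Values of further probe sets come from the same fit over all probe sets, added after the data were seen. Genes named are fixed chaperones, the 4 highest and 4 lowest called with each siRNA per compartment, the largest siRNA differences, each compartment's brightest gene and up to 3 per direction of each partner list; others are named as background or beyond this rule. Members and lists were chosen with earlier results of these data known. Promoter windows, from RefSeq, were matched by symbol for 65 of 79 genes. Same-numbered arrays did not deviate together (correlations 0.00992, -0.00462 and -0.0186).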

Additional observations from a re-analysis of the deposited data

Results flagged for a closer look

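These results differed between the Ncl siRNAs by limma's test of that difference, Ncl siRNA #2 minus Ncl siRNA #1. Among the chaperones the difference was 1.13 for Hspa1a, 1.05 for Hspb2, 0.81 for Hspa1b, -0.24 for Dnajc21 and -0.33 for Dnajc14. Among the partner genes it was 1.07 for Cryab, -0.41 for Ero1a and -0.23 for Timm44. The Ero1a difference was not called without either Ncl siRNA #2 array (limma adjusted p = 0.0591 and 0.0517), with variances without a trend (0.132) or with the mean of its probe sets (-0.17, limma adjusted p = 0.332). The Timm44 difference was not called without the first Ncl siRNA #1 array (limma adjusted p = 0.123), without either Ncl siRNA #2 array (0.21 and 0.262), with quantile normalization (0.119), with variances without a trend (0.234) or with the mean of its probe sets (0.103). The arrays of Ncl siRNA #2 were all above those of Ncl siRNA #1 for the positive differences and all below them for the negative ones.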

How the results depend on the processing

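Counts of called chaperones are given as higher and lower. Leaving out each array in turn gave 17 to 26 and 16 to 20 for the mean of both siRNAs, 14 to 21 and 13 to 20 for Ncl siRNA #2, 15 to 26 and 14 to 17 for Ncl siRNA #1, and 3 to 5 and 0 to 11 between the siRNAs. By compartment it gave 14 to 20 and 7 to 10 in cytosol and nucleus, 2 to 3 and 1 to 2 in the ER, 0 to 2 and 4 to 6 in mitochondria, and 1 to 1 and 2 to 3 elsewhere. Variances without a trend gave 14 higher for the mean, 10 for Ncl siRNA #2 and 13 for Ncl siRNA #1, 0 lower between the siRNAs, 1 and 1 in the ER and 0 higher in mitochondria, and ended the calls of Hsp90aa1, Hspb1, Dnajb1, Hspa5, Dnajb11, Hspa9, Hspd1, Hspe1, Clpp and Trap1. At least 2-fold change left 4 and 0 for the mean, 5 and 1 for Ncl siRNA #2, 4 and 0 for Ncl siRNA #1, 0 lower between the siRNAs, 4 and 0 in the cytosol and 0 and 0 in each other compartment. An adjusted p under 0.01 gave 15 higher for Ncl siRNA #1, 0 lower between the siRNAs and 1 higher in mitochondria. Quantile normalization gave 5 and 1 between the siRNAs and 4 lower outside the main compartments. Centring on array medians gave 5 lower between the siRNAs, the mean of probe sets 1 lower, and both gave 1 higher in mitochondria. Without genes below the median signal 59 chaperones were tested, with 5 and 6 between the siRNAs and 1 lower in the ER. Only the arrays compared gave 5 higher between the siRNAs, as did the replicate block, under which the mean gave 24 and 19. The sample titles do not say whether same-numbered arrays were prepared together, and these arrays did not deviate together. Reversed values were Hspa8 at -0.074 with the mean of probe sets and -0.48 without probe sets ending in _x_at or _s_at (limma adjusted p = 3.32e-05), Hspa5 at -0.026 with the mean of probe sets, Hsp90b1 at 0.021 with quantile normalization and between -0.059 and 0.018 over the array omissions (above 0 without the first control or the first Ncl siRNA #1 array), and Dnajc3 at -0.000255 with quantile normalization, -0.018 with centring and between -0.0064 and 0.037 over the omissions (below 0 without the first Ncl siRNA #2 array). None of these Hspa5, Hsp90b1 and Dnajc3 values was called, but with the mean of probe sets Hsp90b1 was called at -0.43 (limma adjusted p = 1.13e-05). The causes of these shifts were not tested, beyond fewer arrays or genes in the omissions. Differences between the siRNAs were rerun for called named genes, Hspb8 and Hspa4l alone, and with only the arrays compared the mean of both siRNAs has no value of its own. Signal over background was not given, and 2 arrays per group limit every count.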

Other observations

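Dnajc19, a J-domain protein of the mitochondrial import motor, has probe sets that also carry the symbol of a pseudogene and was left out of the 79 genes. Its brightest probe set read 10.62 and 10.66 with Ncl siRNA #2, 10.92 and 10.93 with Ncl siRNA #1, and 11.16 and 11.16 in the control arrays, which did not overlap. The signal cannot be given to 1 of the 2 genes.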
